A study of Mus musculus with 17 samples.

Results

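The genes described here are 9 markers of T cells: the CD3 chains Cd3d, Cd3e and Cd3g, the coreceptors Cd4, Cd8a and Cd8b1, the costimulatory receptor Cd28, the kinase Lck and the transcription factor Foxp3. They were taken by symbol from a table of 47643 genes, and all 9 were found in it. RNA-seq was done on diaphragm muscle, the main muscle of breathing, from 17 male C57BL/6J mice of 4 months. Control mice (n = 5) carried no tumor and received mock injections, and Control + rFibcd1 mice (n = 5) carried no tumor and received rFibcd1, a recombinant form of the secreted protein Fibcd1, into the peritoneal cavity. LLC mice (n = 3) carried tumors from Lewis lung carcinoma cells, a mouse lung cancer line injected under the skin of both flanks, and received mock injections, whereas LLC + rFibcd1 mice (n = 4) carried the same tumors and received rFibcd1. The tumors lay outside the sampled muscle. The labels name no engineered allele in any group, and each library is 1 mouse.

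T cells recognize peptides on other cells through the T cell receptor, which carries no signal on its own and is held in a complex with the CD3 chains. CD4 marks helper T cells and binds MHC class II molecules, CD8 marks cytotoxic T cells and binds MHC class I molecules, and both bring the kinase LCK to the receptor, where it phosphorylates the CD3 chains. CD28 delivers the second signal that a resting T cell needs, and FOXP3 defines the regulatory T cells that restrain immune responses and also reside in skeletal muscle, where they take part in repair.

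The genes of the CD3 chains lie together on chromosome 9 (GRCm38, GENCODE vM21). Cd3g (chr9:44969572-44980431, minus strand) and Cd3d (chr9:44981786-44987339, plus strand) are transcribed away from each other from starts 1355 bp apart, and Cd3e (chr9:44998740-45009627, minus strand) starts 27841 bp from Cd3d. The start-site regions of these neighbors and of Lck (chr4:129548344-129573641, minus strand) are shown because the transcripts moved together across mice. Each is the 250 bases before a RefSeq start on GRCm38.p6, 5′ to 3′ on the strand of the gene. The windows are chr9:44980432-44980681 (minus) for Cd3g, chr9:44981536-44981785 (plus) for Cd3d, chr9:45009612-45009861 (minus) for Cd3e and chr4:129573642-129573891 (minus) for the upstream start of Lck. Capitals mark matches to short motifs that T cell transcription factors are known to bind, read on either strand: AGGAAG for ETS factors, TGTGGT for RUNX factors, CACCTG for E box proteins, AGATAA for members of the GATA family and TCAAAG for TCF/LEF factors.
Cd3g: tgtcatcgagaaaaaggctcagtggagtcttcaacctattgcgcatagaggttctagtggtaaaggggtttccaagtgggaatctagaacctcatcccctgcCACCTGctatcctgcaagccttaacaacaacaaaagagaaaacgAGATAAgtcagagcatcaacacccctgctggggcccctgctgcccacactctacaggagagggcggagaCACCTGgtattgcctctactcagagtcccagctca
Cd3d: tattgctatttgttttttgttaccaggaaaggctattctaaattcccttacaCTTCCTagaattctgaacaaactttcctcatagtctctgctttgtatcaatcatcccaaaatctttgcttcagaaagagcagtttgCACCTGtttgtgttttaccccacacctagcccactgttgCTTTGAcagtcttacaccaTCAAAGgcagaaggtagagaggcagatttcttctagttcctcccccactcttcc
Cd3e: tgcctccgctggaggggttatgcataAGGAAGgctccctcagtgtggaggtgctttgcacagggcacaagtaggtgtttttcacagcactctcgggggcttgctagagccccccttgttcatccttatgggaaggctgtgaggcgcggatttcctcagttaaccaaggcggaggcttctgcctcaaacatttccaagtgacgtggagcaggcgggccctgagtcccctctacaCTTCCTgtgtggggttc
Lck: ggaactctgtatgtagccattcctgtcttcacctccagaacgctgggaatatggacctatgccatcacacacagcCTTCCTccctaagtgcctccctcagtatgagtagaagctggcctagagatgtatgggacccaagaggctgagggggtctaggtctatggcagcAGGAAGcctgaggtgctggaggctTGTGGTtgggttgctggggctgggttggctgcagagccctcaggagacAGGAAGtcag

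Cd3g held 2 E box matches, 148 and 35 bases before its start (positions -148 and -35), and a GATA match at -104. Cd3d held an ETS match at -198, an E box match at -112 and TCF/LEF matches at -73 and -54. Cd3e held ETS matches at -224 and -17, and the upstream start of Lck held ETS matches at -175, -82 and -10 and a RUNX match at -58. RefSeq entries were found for 6 of the 9 genes, with 8 windows in all, since Lck and Foxp3 have 2 starts each. An ETS match occurred in 5 of these 8 windows and in 29.5% of all 32851 promoter windows of the same length, an E box match in 3 of 8 and 17.2%, a GATA match in 2 of 8 and 9.99%, a TCF/LEF match in 1 of 8 and 13.8%, and a RUNX match in 1 of 8 and 14.0%. The Cd8a window and the upstream Foxp3 window held no match. A match is a sequence of letters and was not tested as a binding site.

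The deposited unit is TPM (transcripts per 1000000), in which a gene's reads are divided by its length. The depth recovered from the steps of low values was about 50800000 to 54600000 reads per mouse, and the 1.14 TPM of Cd3d in Control replicate 1 stood for 38 reads. In total, 13305 genes reached at least 1 TPM in at least 3 mice and were tested. Foxp3 reached 1 TPM in 0 mice and was left below that filter, so 8 of the 9 genes were tested with it, and Foxp3 was taken from a fit without the filter. Cd8a, with 4 mice at 1 TPM or more (the 3 LLC mice and LLC + rFibcd1 replicate 3), and Cd8b1, with 5 (those 4 and Control replicate 2), passed only through the LLC mice, in which they were high. The other 6 genes also reached 1 TPM in 3 mice outside LLC. Defining transcripts of skeletal muscle were abundant in every mouse, with a summed level of 53165 to 68757 TPM over 10 markers. The T cell genes were far below, with Control means from 0.0741 TPM (Foxp3) to 1.53 TPM (Cd3g). LLC + rFibcd1 replicate 3 was the highest mouse of its group in all 9 genes, and counts of genes that passed are also given without it.

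The first comparison asked which T cell transcripts differ in the diaphragm of tumor-bearing mice. All 9 genes were higher in each of the 3 LLC mice than in any of the 5 Control mice, and mean levels were 1.74-fold (Cd28) to 7.50-fold (Foxp3) those of Control. In a limma fit on log2(TPM + 1) without the filter, 8 of the 9 genes were higher in LLC than in Control at an adjusted p under 0.05, where 18.3% of 22950 genes were, and Cd28 did not pass (adjusted p = 0.0525). In the fit with the filter, the 8 genes that passed it were all higher, where 29.7% of all genes tested were, but Cd8a and Cd8b1 had passed it through the LLC mice. The limma tests of T cell genes below come from this fit, except for Foxp3 and where the fit without the filter is named. Counts and ranges over the 8 genes below, and the figures, thus include Cd8a and Cd8b1. The 6 genes that did not depend on the LLC mice were higher in 6 of 6. LLC mice lay above all Control mice in 9 of 9 T cell genes, against 24.2% of the 22950 genes with any read, and above all 10 tumor-free mice in 9 of 9, against 17.5%. The median log2 change without the filter was 1.53 over the 9 T cell genes and 0.06 over all genes. In bulk tissue, more T cells and more RNA per T cell cannot be told apart.

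**Figure D1:**
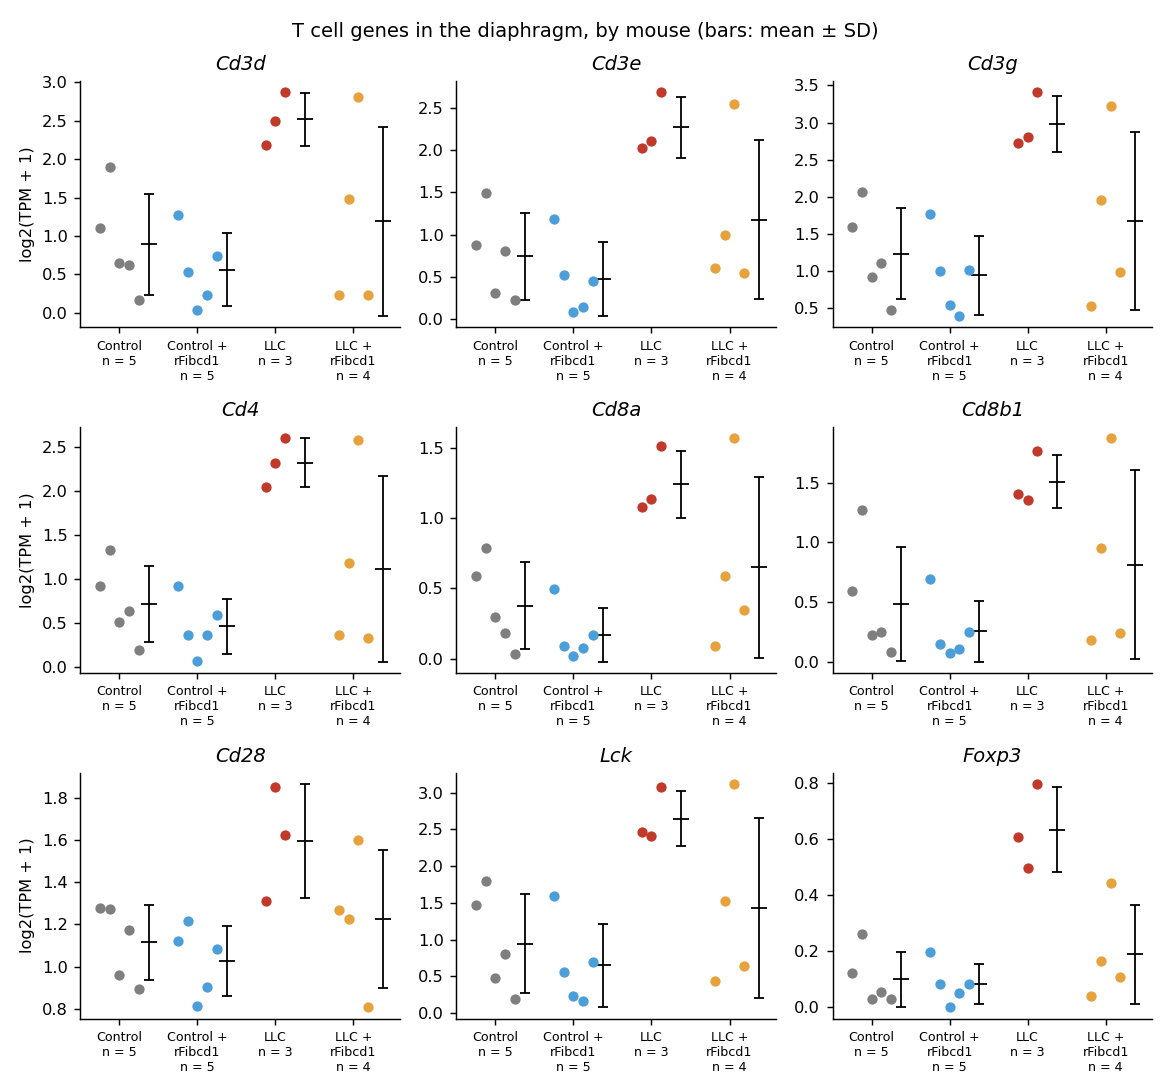
Level of each of the 9 T cell genes as log2(TPM + 1) on the vertical axis, with 1 point per mouse in the 4 groups and bars for the mean ± SD of that scale. The 3 LLC points lie above all Control and Control + rFibcd1 points in every panel, and the highest LLC + rFibcd1 point is replicate 3, which lies below the LLC points for Foxp3 and within or above their range for the other 8 genes.

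Among the CD3 chains, Cd3d stood at 1.14, 2.73, 0.568, 0.544 and 0.125 TPM in Control replicates 1 to 5 and at 3.54, 4.64 and 6.31 TPM in LLC replicates 1 to 3. It was at 1.41, 0.445, 0.0303, 0.170 and 0.672 TPM in Control + rFibcd1 replicates 1 to 5 and at 0.177, 1.78, 6.01 and 0.178 TPM in LLC + rFibcd1 replicates 1 to 4. Every LLC mouse was thus above every tumor-free mouse, and the lowest value, in Control + rFibcd1 replicate 3, rested on 1 read. Cd3d rose from 1.02 ± 1.02 TPM (SD, n = 5) to 4.83 ± 1.39 (SD, n = 3), a log2 change of 1.63 ± 0.51 (SE; limma, adjusted p = 0.0261).

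Cd3e, the chain most often used to identify T cells, was at 0.831, 1.82, 0.233, 0.752 and 0.173 TPM in Control mice and at 3.07, 3.30 and 5.44 TPM in LLC mice. In the rFibcd1 groups it was at 1.27, 0.437, 0.0558, 0.104 and 0.366 TPM without tumors and at 0.516, 1.00, 4.86 and 0.464 TPM with tumors. The LLC values did not overlap those of either tumor-free group. Its log2 change from Control to LLC was 1.53 ± 0.41 (SE; limma, adjusted p = 0.0153).

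Cd3g had the highest level of the CD3 chains, with 2.01, 3.19, 0.898, 1.16 and 0.387 TPM in Control mice and 5.58, 6.00 and 9.62 TPM in LLC mice. It was at 2.40, 0.991, 0.449, 0.315 and 1.02 TPM in Control + rFibcd1 mice and at 0.437, 2.87, 8.38 and 0.989 TPM in LLC + rFibcd1 mice. The order of the mice was close to that of Cd3d and Cd3e, with LLC replicate 3 and LLC + rFibcd1 replicate 3 on top for each of them. The log2 change from Control to LLC was 1.75 ± 0.51 (SE; limma, adjusted p = 0.0194). The lengths implied by the steps of the deposited values were 1323 bp for Cd3d, 1437 bp for Cd3e and 1070 bp for Cd3g, shorter than the merged exons of GENCODE (1815, 4080 and 3269 bp), so levels of the CD3 chains relative to each other depend on the transcript model the authors used.

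The coreceptor of helper T cells, Cd4 (chr6:124864692-124888221), is also made by some macrophages and dendritic cells. It was at 0.898, 1.51, 0.425, 0.556 and 0.144 TPM in Control mice and at 3.12, 4.02 and 5.08 TPM in LLC mice. In the rFibcd1 groups, Cd4 was at 0.893, 0.282, 0.0496, 0.288 and 0.511 TPM without tumors and at 0.290, 1.28, 4.98 and 0.253 TPM with tumors. The 3 LLC mice and LLC + rFibcd1 replicate 3 formed the upper end, and no other mouse passed 1.51 TPM. Cd4 rose 5.76-fold in mean TPM, with a log2 change of 1.61 ± 0.41 (SE; limma, adjusted p = 0.0134), the smallest adjusted p of the 8 genes tested.

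The CD8 chains lie side by side on chromosome 6, with Cd8b1 (chr6:71322788-71337494) and Cd8a (chr6:71373427-71379173) on the plus strand and 50639 bp between their starts. Cd8a was at 0.503, 0.731, 0.230, 0.132 and 0.0228 TPM in Control mice and at 1.11, 1.20 and 1.86 TPM in LLC mice. Cd8b1 was at 0.510, 1.42, 0.169, 0.189 and 0.0558 TPM in Control mice and at 1.65, 1.56 and 2.40 TPM in LLC mice, so that Control replicate 2 came close to the LLC range. Both chains are needed for the receptor form of CD8 on conventional cytotoxic T cells, while Cd8a alone is also found on some dendritic cells. In Control + rFibcd1 mice, Cd8a was at 0.410, 0.0648, 0.0110, 0.0515 and 0.122 TPM and Cd8b1 at 0.614, 0.106, 0.0540, 0.0758 and 0.191 TPM. In LLC + rFibcd1 mice, Cd8a was at 0.0643, 0.505, 1.97 and 0.269 TPM and Cd8b1 at 0.131, 0.942, 2.67 and 0.185 TPM, with replicate 3 the highest of all 17 mice for both chains. From Control to LLC, in the fit without the filter, Cd8a rose by a log2 change of 0.87 ± 0.26 (SE; limma, adjusted p = 0.0336) and Cd8b1 by 1.02 ± 0.34 (adjusted p = 0.0456), with mean TPM 4.30-fold and 3.99-fold higher. At 2 to 67 reads per Control mouse for Cd8a and 2 to 53 for Cd8b1, counting error was a large part of the lower values, and the log2(TPM + 1) scale understates their change.

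Lck, which phosphorylates the CD3 chains when the receptor is engaged, was at 1.77, 2.46, 0.385, 0.738 and 0.141 TPM in Control mice and at 4.49, 4.29 and 7.43 TPM in LLC mice. It was at 2.01, 0.469, 0.178, 0.115 and 0.621 TPM in Control + rFibcd1 mice and at 0.346, 1.87, 7.68 and 0.562 TPM in LLC + rFibcd1 mice. LLC + rFibcd1 replicate 3 had the highest Lck level of all mice, and the LLC mice followed. The change from Control to LLC was 1.70 ± 0.53 (log2, SE; limma, adjusted p = 0.0249).

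Cd28 (chr1:60716800-60773359) varied least. It was at 1.42, 1.41, 0.948, 1.25 and 0.859 TPM in Control mice, at 1.48, 2.61 and 2.08 TPM in LLC mice, at 1.18, 1.32, 0.759, 0.869 and 1.12 TPM in Control + rFibcd1 mice and at 1.41, 1.34, 2.03 and 0.749 TPM in LLC + rFibcd1 mice. The lowest LLC mouse, at 1.48 TPM, was just above the highest Control mouse, at 1.42 TPM, so the groups were separated by a narrow gap. The highest mouse was 3.48-fold above the lowest, whereas this ratio was 208-fold for Cd3d and 66.8-fold for Lck. Cd28 rose by 0.48 ± 0.17 (log2, SE; limma, adjusted p = 0.0371), or by 0.32 relative to the median change of all genes, and after quantile normalization its change was 0.15 with an adjusted p of 0.409. Of the 8 genes tested, Cd28 lost its call under the most alternatives.

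Foxp3 (chrX:7573644-7595245), the defining factor of regulatory T cells, had the lowest level. It was at 0.0898, 0.199, 0.0209, 0.0401 and 0.0208 TPM in Control mice and at 0.522, 0.410 and 0.735 TPM in LLC mice, which stood for 9, 20, 2, 4 and 2 reads and for 52, 41 and 71 reads. Control + rFibcd1 mice were at 0.145, 0.0590, 0, 0.0376 and 0.0608 TPM (14, 6, 0, 4 and 6 reads), where a count of 0 allows a level of up to 0.0301 TPM, that of 3 reads. LLC + rFibcd1 mice were at 0.0293, 0.120, 0.360 and 0.0786 TPM (3, 12, 37 and 8 reads). Foxp3 was the 1 gene of the 9 in which the LLC mice lay above all LLC + rFibcd1 mice, where 7.79% of the genes with any read had LLC above LLC + rFibcd1 without overlap. In the limma fit without the filter, its change from Control to LLC was 0.53 ± 0.09 (log2, SE; adjusted p = 0.00738). This call of Foxp3 was kept in each of 17 fits that left out a mouse (limma, adjusted p 0.00213 to 0.0420), but was lost with the level of B cell markers as a covariate (adjusted p = 0.154). On the annotation, 590 bp of its 4577 exon bp lie opposite Ccdc22, 373 bp opposite Gm36995 and 266 bp opposite Ppp1r3f. Another 853 bp are shared with Flicr on the same strand, which no strand setting can separate. The length implied by the steps of the values was 3990 bp. Whether reads were counted by strand was not settled by the sources. Ccdc22 was at 6.24 to 8.36 TPM in all mice, and at 6.65 TPM in the mouse with a Foxp3 count of 0.

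**Figure D2:**
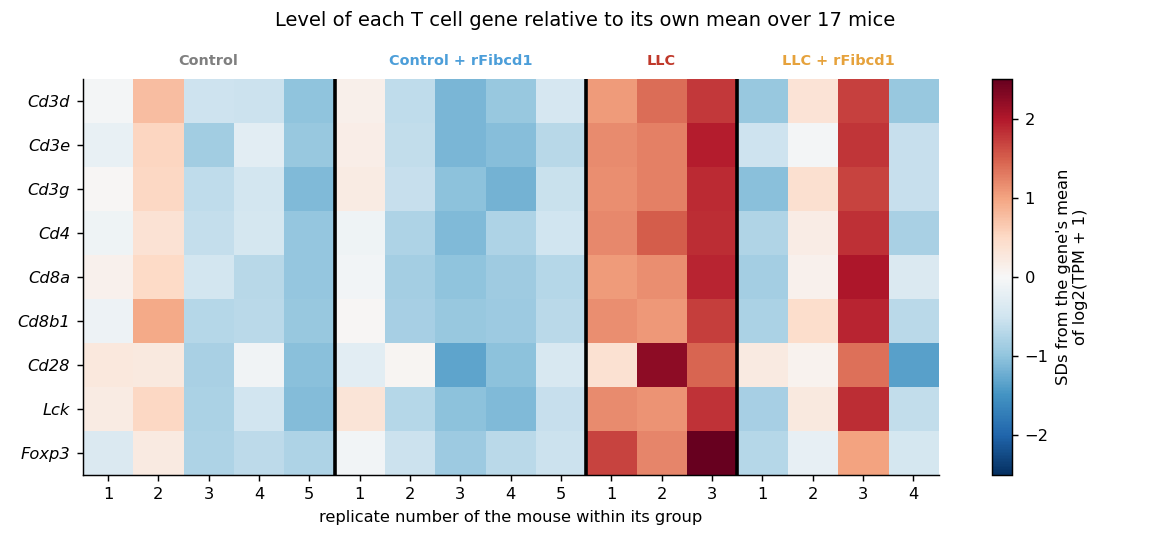
Heat map of the 9 T cell genes (rows) in 17 mice (columns, by group and replicate number), colored by the distance of log2(TPM + 1) from the mean of the gene in SDs. The 3 LLC columns and LLC + rFibcd1 replicate 3 are above the mean in every row, and Cd28 follows the other rows least closely.

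The calls in LLC against Control rested on few mice. Without LLC replicate 3, 0 of the 8 genes tested passed (limma, adjusted p 0.0760 to 0.133), although their changes stayed between 0.46 and 1.53 on the log2 scale, and only 24 of all genes passed. Without Control replicate 5, 3 of 8 passed, and without Control replicate 3, Control replicate 4 or LLC replicate 1, 4, 5 and 4 passed. Calls over all genes fell as well, from 4759 with all mice to 3266 without Control replicate 5. They were 3520, 3513 and 2254 without Control replicate 3, Control replicate 4 and LLC replicate 1.

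**Figure D3:**
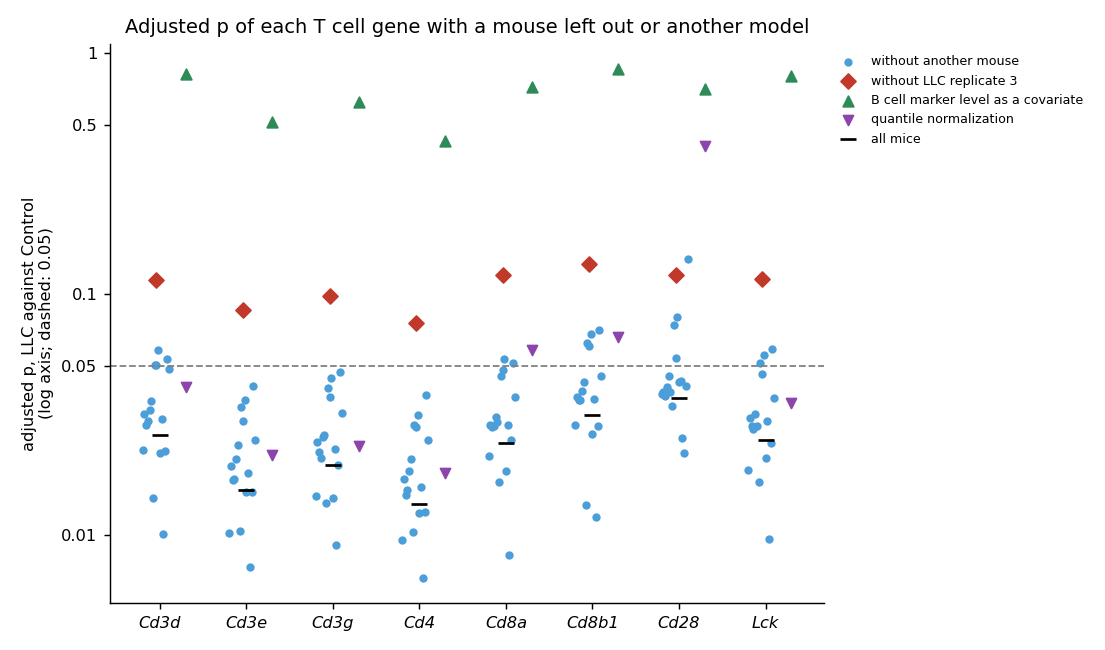
Adjusted p (log axis) of the 8 T cell genes tested in LLC against Control, with all mice (bars), without LLC replicate 3 (diamonds), without any other mouse (dots), after quantile normalization and with the B cell marker level as a covariate (triangles). The diamonds lie above the dashed line at 0.05 for each gene, and the covariate moves each gene to an adjusted p of at least 0.431.

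The next comparison asked whether rFibcd1 altered these transcripts in tumor-bearing mice. Mean levels were lower in LLC + rFibcd1 than in LLC for all 9 genes, 2.04 ± 2.76 TPM (SD, n = 4) against 4.83 ± 1.39 (SD, n = 3) for Cd3d, 1.70 ± 2.24 against 4.07 ± 0.982 for Cd4 and 2.61 ± 3.45 against 5.40 ± 1.76 for Lck. None of the 8 genes tested differed at an adjusted p under 0.05 (limma, 0 of 8, with adjusted p of 0.192 to 0.241), where 0.113% of all genes did. Dunn's test with the same adjustment called 0 genes of the whole table in each of the 5 pairwise comparisons, LLC against Control included, so its counts of 0 say nothing about the T cell genes. At an unadjusted p under 0.05 there were 5 of 8, the CD3 chains, Cd4 and Lck, against 22.7% of all genes. The log2 change was -1.33 for Cd3d with a 95% interval of -2.48 to -0.18, -1.21 for Cd4 (-2.12 to -0.30), and -0.37 for Cd28 (-0.74 to 0.00108). Foxp3 had a change of -0.44 (-0.63 to -0.25) and an adjusted p of 0.0710 in the fit without the filter.

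LLC + rFibcd1 replicate 3 was the highest of its group in all 9 genes. This mouse had 6.01 TPM of Cd3d, 4.98 TPM of Cd4 and 2.67 TPM of Cd8b1, within or above the LLC range, whereas replicates 1 and 4 had 0.177 and 0.178 TPM of Cd3d, below the Control mean of 1.02 TPM. Replicate 2 lay between, with 1.78 TPM. Without replicate 3, the LLC + rFibcd1 mean was 0.711 ± 0.925 TPM for Cd3d, 0.607 ± 0.581 for Cd4 and 0.0760 ± 0.0454 for Foxp3 (SD, n = 3). Of the 8 genes tested, 1, Cd4, then passed (limma, log2 change -1.70, adjusted p = 0.0485), as did 33 of all genes. Without this mouse and without the filter, Foxp3 had a change of -0.53 and an adjusted p of 0.00852 (limma). Replicate 3 was singled out by its high values of these same genes. Leaving it out lowers their group means by construction, so these calls are no independent result. Foxp3 also passed without LLC replicate 2 (-0.51, adjusted p = 0.0332).

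**Figure D4:**
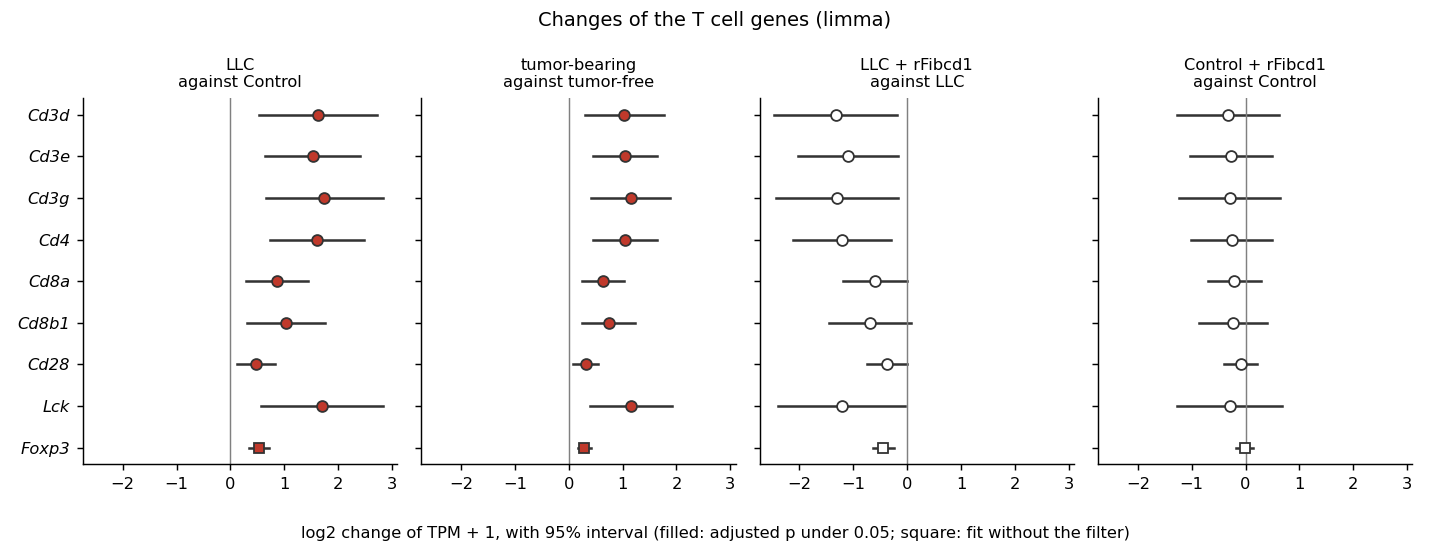
Log2 change of TPM + 1 with its 95% interval (limma) for the 9 T cell genes in 4 comparisons, filled where the adjusted p is under 0.05, with Foxp3 (square) from the fit without the filter. The changes lie right of 0 in LLC against Control and in tumor-bearing mice against mice without tumors, and left of 0 with wide intervals in LLC + rFibcd1 against LLC.

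In tumor-free mice, rFibcd1 gave changes of -0.33 (Cd3d) to -0.09 (Cd28) on the log2 scale. None of the 8 genes passed (limma, 0 of 8, also 0 at an unadjusted p under 0.05), where 0% of all genes passed and 4.39% had an unadjusted p under 0.05. For Cd3e the interval was -1.03 to 0.50. LLC + rFibcd1 against Control gave changes of 0.11 (Cd28) to 0.48 (Lck), and 0 of 8 passed (3.08% of all genes did). There, 0 of 8 had an unadjusted p under 0.05, against 19.9% of all genes. LLC + rFibcd1 against Control + rFibcd1 gave changes of 0.20 (Cd28) to 0.78 (Lck), and again 0 of 8 passed (8.06% of all genes did), with 0 of 8 at an unadjusted p under 0.05 (28.5%). For Foxp3, in the fit without the filter, the change was -0.02 in Control + rFibcd1 against Control, 0.09 in LLC + rFibcd1 against Control and 0.11 in LLC + rFibcd1 against Control + rFibcd1 (adjusted p of 1.00, 0.660 and 0.490). The interaction of tumor and rFibcd1 was -1.01 for Cd3g and -0.95 for Cd4, with 0 of 8 called (0% of all genes) and 0 of 8 at an unadjusted p under 0.05 (8.58%). Foxp3, in the fit without the filter, had an interaction of -0.43 (95% interval -0.67 to -0.18) with an unadjusted p of 0.00245, where 7.81% of all genes had one under 0.05, and an adjusted p of 0.247. At the adjusted threshold, a difference between the effects of the tumor with and without rFibcd1 was not shown. Without LLC + rFibcd1 replicate 3, 0 of 8 passed in each of the 3 comparisons that include this group here. Of all genes, 170 then passed against Control, 476 against Control + rFibcd1 and 0 in the interaction. The mean TPM of the group without this mouse was below that of Control for each gene tested. It was 0.711 against 1.02 for Cd3d, 0.607 against 0.707 for Cd4 and 0.925 against 1.10 for Lck. For Foxp3 it was not (0.0760 against 0.0741 TPM).

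Tumor-bearing mice as a whole (n = 7) were compared with tumor-free mice (n = 10), which share the same libraries with the comparisons above. Without the filter, 8 of the 9 genes were higher (limma), where 24.0% of all genes were, and Cd28 did not pass (adjusted p = 0.0509). With the filter, the 8 genes that passed it were higher, where 38.8% of all genes were. Cd3e, Cd4, Cd8a and Cd8b1, however, had passed it only through tumor-bearing mice, in which they were high. With the filter, the changes ran from 0.31 ± 0.11 for Cd28 (log2, SE, adjusted p = 0.0348) to 1.15 ± 0.36 for Lck (adjusted p = 0.0185). Without it, Cd4 was at 1.04 ± 0.28 (limma, adjusted p = 0.0149) and Cd3e at 1.04 ± 0.28 (adjusted p = 0.0160). In 0 of the 9 genes did all tumor-bearing mice lie above all tumor-free mice, where 1.09% of the genes with any read had no overlap, since LLC + rFibcd1 replicates 1, 2 and 4 overlapped them. Foxp3 had a change of 0.29 ± 0.06 (log2, SE; adjusted p = 0.00465) in the fit without the filter, and did not pass with the B cell covariate (adjusted p = 0.133). Without LLC replicate 3, 3 of 8 passed (4140 of all genes), and without LLC + rFibcd1 replicate 3, 8 of 8 (5498 of all genes), against 5963 of all genes with all mice.

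The balance between T cell subsets was read from transcript ratios within each mouse, as log2 of (a + 0.1)/(b + 0.1) TPM, and 9 differences were tested by two-sided exact permutation over mice with Benjamini-Hochberg adjustment over the 9. The Cd8a to Cd4 ratio averaged -0.97 ± 0.33 (SD, n = 5) in Control and -1.49 ± 0.15 (SD, n = 3) in LLC, a difference of -0.52 (exact p = 0.0893, adjusted p = 0.343). Between LLC + rFibcd1 and LLC the same ratio differed by 0.58 (exact p = 0.114, adjusted p = 0.343), with LLC + rFibcd1 replicate 4 at 0.0666 and the other 3 mice at -1.29 to -1.19. The Foxp3 to Cd4 ratio differed by -0.64 between LLC and Control (exact p = 0.161, adjusted p = 0.362), and the Cd8b1 to Cd8a ratio by 0.16 (exact p = 0.518, adjusted p = 0.724). None of the 9 passed, and the smallest p that 3 against 5 mice can give, from 1 of 56 splits, is 0.0179. With a pseudocount of 1 TPM, which is above the Control means of these genes, 4 of the 9 passed (exact permutation, adjusted p = 0.0411). Among them were Cd8a to Cd4 (-0.74) and Foxp3 to Cd4 (-1.07) in LLC against Control. Without a pseudocount, Cd8a was at 0.298 to 0.367 of Cd4 in LLC mice and at 0.158 to 0.560 in Control mice. The sign of the Foxp3 to Cd4 difference between LLC and Control changed with a pseudocount of 0.01 TPM. Without LLC + rFibcd1 replicate 3, 0 of the 9 passed.

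By mean TPM, the order in LLC was Cd3g (7.07), Lck (5.40), Cd3d (4.83), Cd4 (4.07), Cd3e (3.94), Cd28 (2.05), Cd8b1 (1.87), Cd8a (1.39) and Foxp3 (0.556). Neighbors in this order were not all apart: Lck was above Cd3d in 2 of 3 mice, Cd4 above Cd3e in 2 of 3 and Cd28 above Cd8b1 in 1 of 3, while Cd8b1 was above Cd8a and Cd8a above Foxp3 in 3 of 3. In Control the order began with Cd3g (1.53), Cd28 (1.18) and Lck (1.10), and Cd3g was above Cd28 in 2 of 5 mice. Cd28 thus held place 2 in Control and place 6 in LLC. In Control + rFibcd1 replicate 3, Cd28 was read 116 times while Cd3d was read 1 time and Cd3e 2 times. The ratio of Cd28 to Cd3e in TPM ranged from 0.382 to 0.788 in LLC mice, from 0.775 to 4.96 in Control mice from 0.928 to 13.6 in Control + rFibcd1 mice and from 0.418 to 2.73 in LLC + rFibcd1 mice.

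Across the 17 mice, the level of each gene as log2(TPM + 1) followed the mean of the other 8 with a Pearson r of 0.926 (Foxp3) to 0.993 (Cd4), and of 0.847 for Cd28. Of all other genes tested, the 10 that followed the mean of the T cell genes most closely were Trac (r = 0.994), Ms4a4b, Tcf7, Cd5, Cd72, Cd6, Ccr6, Il2rb, Cxcr3 and Cnr2 (r = 0.986). Trac encodes the constant part of the T cell receptor alpha chain, Cd5 and Cd6 are surface receptors of T cells, and Tcf7 is a T cell transcription factor. Cd72 is a B cell receptor, and Trac, at 1.94, 1.09, 9.82 and 4.60 TPM in Control, Control + rFibcd1, LLC and LLC + rFibcd1, and Cd72, at 1.22, 0.802, 6.70 and 3.05 TPM, had the same order of groups. These correlations describe 17 mice whose libraries differ in groups and in immune content together, and carry no test.

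Other genes of the T cell pathway were taken from lists. Some listed genes reach the filter only through the LLC mice, so counts are given over every listed gene of the table that had a read, from the fit without the filter, in which 18.3% of all genes were higher and 3.08% lower in LLC than in Control. The genes named had the smallest adjusted p of their list among those that reached the filter, and their log2 changes and adjusted p are from the fit without it. Of the receptor chains, 2 of 5 were higher, namely Trac (2.01 ± 0.60, log2, SE; limma, adjusted p = 0.0311) and Trbc2 (2.27 ± 0.74, adjusted p = 0.0418), whereas Trbc1 had a change of 1.67 ± 0.59 (adjusted p = 0.0578) and Cd247, the zeta chain that carries the signal of the complex, was at 0.631 TPM in Control and 1.29 TPM in LLC (adjusted p = 0.0689). Trdc, the constant part of the delta chain of gamma-delta T cells, stayed below the filter, with 0.477 TPM in Control and 0.781 TPM in LLC.

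Of genes that transmit the receptor signal, 18 of 22 were higher and 1 was lower. The adapters Sh2d2a (0.90, adjusted p = 0.0150) and Pag1 (0.77, adjusted p = 0.0189) were higher, of which Sh2d2a reached the filter only through the LLC mice. The kinase Prkcq was lower by a log2 change of -0.22 (adjusted p = 0.0164) and, at 25.7 TPM in Control and 21.9 TPM in LLC, was far above the level of T cell genes. Of costimulation and adhesion receptors, 15 of 18 were higher, among them Slamf6 (1.27, adjusted p = 0.0197), Tnfrsf18 (1.09, adjusted p = 0.0205) and Tnfrsf4 (0.66, adjusted p = 0.0204), of which Slamf6 and Tnfrsf18 reached the filter only through the LLC mice. Of cytokine and homing receptors, 9 of 16 were higher, among them Ccr6 (1.65, adjusted p = 0.0164), Il2rg (1.66, adjusted p = 0.0270) and Cxcr3 (1.47, adjusted p = 0.0270), with Ccr6 reaching the filter only through the LLC mice. In LLC + rFibcd1 against LLC, 0 genes of these lists passed with the filter, where 0.113% of all genes did.

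Of T cell transcription factors, 7 of 15 were higher, among them Runx3 (1.04), which reached the filter only through the LLC mice, and Ikzf3 (1.71) and Ikzf1 (1.83), which are shared with B cells. Of cytotoxic effectors, 7 of 11 were higher. Only Cst7 (1.21), Nkg7 (1.50), Ccl5 (2.17) and Ctsw (1.00) reached the filter, Cst7 and Ctsw through the LLC mice alone, and the granzymes, Prf1 and Ifng did not reach it. Gzmb, a protease of active killer cells, averaged 0.0452 TPM in Control and 0.229 TPM in LLC, and Ifng averaged 0.0669 and 0.156 TPM. Of the ligands that antigen-presenting cells offer to T cells, 6 of 8 were higher, among them Cd40 (1.08), Cd86 (0.97) and Cd48 (1.71). The median change without the filter ran from 0.41 for transcription factors to 1.67 for receptor chains, where the median over all genes was 0.06.

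Markers of other immune cells were also higher in LLC than in Control. Of the 12 B cell markers, all reached the filter in mice outside LLC, and 12 of 12 were higher in LLC than in Control with the filter (29.7% of all genes) and 7 of 12 without it (18.3%), with a median log2 change of 2.40. Their summed level was 3.08 to 126 TPM in Control, 4.65 to 177 TPM in Control + rFibcd1, 295 to 378 TPM in LLC and 22.8 to 365 TPM in LLC + rFibcd1, with replicate 3 at 365 TPM. Cd79a and Ms4a1, which mark B cells, were above 0 in every mouse. With the mean log2 level of these markers as a covariate, 0 of the 8 T cell genes passed in LLC against Control (limma, where 7 of all genes did), with changes of 0.11 to 0.50. In tumor-bearing mice against mice without tumors, 0 of 8 passed (589 of all genes). Without the filter, Foxp3 did not pass in either comparison with this covariate. This level was 4.12 to 4.48 in LLC mice and 0.259 to 2.99 in Control mice. It thus differs between the groups without overlap, and that fit cannot separate it from the tumor. The part of B cells in these results was not tested.

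**Figure D5:**
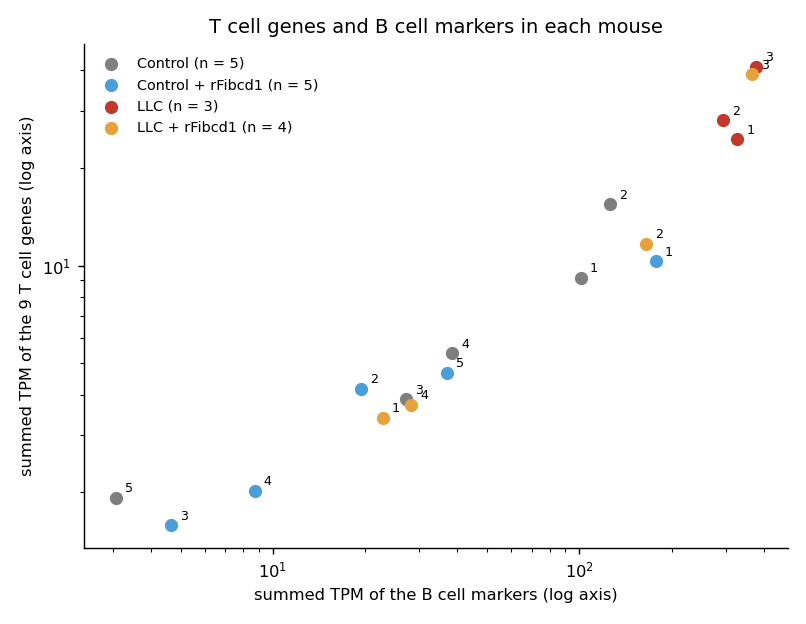
Summed TPM of the 9 T cell genes against the summed TPM of 12 B cell markers, both on log axes, with 1 point per mouse and its replicate number. LLC replicates 1 to 3 and LLC + rFibcd1 replicate 3 lie at the upper right, with 24.6 to 41.0 TPM of T cell genes, and Control replicate 5 and Control + rFibcd1 replicates 3 and 4 at the lower left.

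For the other cell types, counts are again from the fit without the filter (18.3% of all genes higher, 3.08% lower). Macrophage markers summed to 193 to 296 TPM in Control and 401 to 494 TPM in LLC (3 of 11 higher), plasma cell markers to 45.3 to 332 and 386 to 561 TPM (4 of 7 higher) and dendritic cell markers to means of 7.79 and 14.2 TPM (4 of 8 higher). Neutrophil markers summed to 1.95 to 14.5 TPM in Control and 45.2 to 107 TPM in LLC (4 of 7 higher), and they were at 55.2 to 207 TPM in the LLC + rFibcd1 mice, above all Control mice in replicates 1, 2 and 4 too, in which T cell genes were lower than in LLC. They were at 2.95 to 79.2 TPM in Control + rFibcd1 mice, so that 1 tumor-free mouse, replicate 3, lay above the lowest LLC and LLC + rFibcd1 mice. NK cells share Lck, Ccl5, Nkg7 and other genes with T cells, and the NK list summed to 0.787 to 2.78 TPM in Control and 3.37 to 6.28 TPM in LLC, with 5 of its 8 markers higher. Ncr1 was at 0 in some mice and at 0.537 TPM at most. Of the genes listed for developing T cells of the thymus, 0 of 6 were higher. Rag1, Rag2, Dntt and Ptcra, which act in T cell receptor rearrangement and assembly, were at 0.0242, 0.0122, 0.201 and 0.125 TPM at most, while Arpp21 averaged 1.34 and 1.00 TPM and Smpd3 3.09 and 9.96 TPM in Control and LLC. Lymph node markers summed to 245 to 317 TPM in Control and 311 to 469 TPM in LLC (4 of 9 higher), with the vessel marker Glycam1 at 0.686 and 7.63 TPM on average and Madcam1 at 0.0582 TPM at most. Muscle markers were lower in LLC in 5 of 10 without the filter and in 6 of 10 with it (6.02% of all genes), and mitochondrially encoded transcripts held 45.9% to 48.4% of TPM in Control and 41.3% to 44.3% in LLC. With TPM rescaled without the mitochondrially encoded genes, the median log2 change of the 8 T cell genes in LLC against Control was 1.84, against 1.57 before, and 7 of 8 passed (limma), Cd28 being lost (adjusted p = 0.0666). The part of the cells in this paragraph in the T cell results was not tested.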

How the data were processed

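RNA was sequenced from the diaphragm of 17 mice in 4 groups that the labels call biological replicates. The authors mapped reads to GRCm38 and deposited gene levels as TPM, which sum to 1000000 per mouse. The labels and the study's methods differ on the library kit, so strandedness was not settled. Of the low values, 81.3% to 84.0% lay within 0.05 of a whole read, where 10.0% would at random, and 151 of 153 values of the T cell genes lay within 0.1. Depth and lengths come from these steps and carry counting error only. The number of columns without a sample was 0.

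Log2(TPM + 1) was fitted with limma 3.58.1 in R 4.3.3 (group means of all 17 mice, trended empirical Bayes, two-sided) over 13305 genes that reached 1 TPM in 3 or more mice, with Benjamini-Hochberg adjustment over all of them and a threshold of 0.05. Ratios and figures were made in Python 3.11.15. The fit and the ratio test were tested on simulated data. The Kruskal-Wallis and Dunn procedure, which the study used, was an alternative (here with adjustment over all genes, which the study's methods do not mention), as were other pseudocounts, filters, scalings, sample weights, covariates and leaving out each mouse. Median-ratio scaling moved the median change of all genes in LLC against Control from 0.16 to -0.01 and quantile normalization to -0.10.

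The members and lists were chosen with earlier results of these data known. Named were the 9 genes, the 3 genes of each pathway list with the smallest adjusted p, defining markers at 0 and the 10 genes most like the T cell genes. Cd247, Trdc, Ctsw, Gzmb, Ifng, Glycam1, Arpp21, Smpd3 and Ccdc22 were named after their values were seen.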

Additional observations from a re-analysis of the deposited data

Results flagged for a closer look

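A mouse stood far from the rest of its group in 12 of 87 groups of values examined, where chance sets apart about 1 in 20 of independent, normally spread groups. These groups share mice and correlated genes, and most hold untransformed TPM, so an excess over chance was not shown. In Control + rFibcd1, replicate 1 was the high mouse for Cd8a (0.410 TPM, the others 0.0110 to 0.122), Cd8b1 (0.614 TPM, the others 0.0540 to 0.191) and Lck (2.01 TPM, the others 0.115 to 0.621). The same mouse was apart in the summed levels of costimulation and adhesion receptors (28.2 TPM, the others 5.13 to 10.5), of cytokine and homing receptors (200.7 TPM, the others 55.3 to 90.0) and of B cell markers (177 TPM, the others 4.65 to 37.0).

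In LLC + rFibcd1, replicate 3 was apart for Cd3e, with 4.86 TPM against 0.464 to 1.00 in the others. Replicate 4 of that group was apart in the Cd8a to Cd4 ratio, with a log2 ratio of 0.0666 against -1.29 to -1.19. Among Control mice, replicate 5 had a Foxp3 to Cd4 log2 ratio of -1.01 against -2.43 to -2.12, on 2 Foxp3 reads. Control replicate 2 was apart in the summed levels of plasma cell markers (332 TPM, the others 45.3 to 99.5), dendritic cell markers (9.70 TPM, the others 7.05 to 7.52) and lymph node markers (317 TPM, the others 245 to 253).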

How the results depend on the processing

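In LLC against Control, 8 T cell genes passed as first fitted (4759 of all genes), 5 after quantile normalization (4670 of all genes) and 6 with a pseudocount of 0.1 TPM. With the B cell marker level as a covariate 0 passed (7 of all genes), by Dunn's test 0 (0 of all genes), and 0 to 8 when a mouse was left out. The 8 include Cd8a and Cd8b1, which passed the filter only through the LLC mice, in which they were high. In tumor-bearing mice set against those without tumors, 8 (5963 of all genes) became 0 with the B cell covariate (589 of all genes) and 3 to 8 when a mouse was left out. Of these 8, Cd3e and Cd4 also reached the filter only through tumor-bearing mice. In LLC + rFibcd1 against LLC, 0 (15 of all genes) became 0 to 1, with 33 of all genes where it was 1. The replicate block gave 0 in LLC against Control (5 of all genes) and 1 for all tumor-bearing mice (3782 of all genes). Replicate numbers do not pair these mice, however: the correlation of deviations over 22 same-number pairs ran from -0.46 to 0.49 (mean -0.05), with 4 above 0.1. With a pseudocount of 0.1 TPM, Cd3d (adjusted p = 0.0637) and Cd28 (0.0508) lost their calls, while changes grew on that scale, to 2.09 for Cd8a, 2.25 for Cd8b1 and 1.98 for Foxp3. Foxp3 lost its call in LLC against Control with the B cell covariate, by Dunn's test and with the block (adjusted p of 0.154, 0.163 and 0.0628), and in all tumor-bearing mice with the covariate (0.133). Of the 9 transcript ratios, 0 passed with a pseudocount of 0.1 TPM and 4 with 1 TPM. With 0.01 TPM the sign changed for Cd8a to Cd4 (0.26) and Cd8b1 to Cd8a (-0.16) in the comparison of all tumor-bearing mice, and for Foxp3 to Cd4 in LLC against Control (0.27) and LLC + rFibcd1 against LLC (-0.0267). Cd8b1 to Cd8a also changed sign when a mouse was left out, with a range of -0.0186 to 0.175 for all tumor-bearing mice and of -0.23 to 0.15 in LLC + rFibcd1 against LLC. The causes were not tested. In LLC against Control, the count fell by more than 1.5 times in 5 of 17 fits without a mouse and in 4 of 11 other fits, and no change of a T cell gene reversed in any. Depth limits Foxp3 and the lowest values of the other genes, some of which rest on 1 or 2 reads.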
